A study of Mus musculus with 6 samples.

Results

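The red cell precursor genes described here are the adult globin genes Hba-a1, Hba-a2, Hbb-bs and Hbb-bt, the haem synthesis gene Alas2, the transcription factor gene Klf1, the membrane protein genes Slc4a1 and Rhag, and the carbonic anhydrase gene Car2. They are 9 of the 32285 rows in a table of RNA-seq read counts and were picked by symbol, with their difference between the groups already known, so the difference between the groups is given for them as a description without a test. The libraries came from Tregs, the regulatory CD4+ T cells that carry FOXP3 and restrain other lymphocytes, sorted as CD4+CD25+ cells from the spleens of C57BL/6 mice. There were 3 KO libraries, from ERCre Zfp335fl/fl mice that lose the zinc finger gene Zfp335 when tamoxifen is given, and 3 WT libraries. Mice of both groups were 6 weeks old, received 3 injections of tamoxifen at 10 mg/mL on days 1, 3 and 5, and were killed on day 7. This schedule is given in the study's methods, which call the controls ERCre mice, whereas the labels name them wild-type littermates. In ERCre mice the Cre recombinase is fused to an estrogen receptor domain and is not restricted to Tregs, so other cells of the KO mice can lose Zfp335 as well. The promoter that drives this Cre is not named in the sources used here.

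Red cell precursors are not T cells. They make haemoglobin from pairs of alpha and beta globin chains and haem, fill the membrane with an anion exchanger and the Rh protein complex, and use transcription factors such as KLF1 and GATA1 to switch these genes on together. In mice the spleen is a site of red cell formation throughout life, and its red pulp also clears old red cells, so red cell precursors, red cells and the macrophages that engulf them lie beside the lymphocytes of a spleen suspension.

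The library totals were between 133283969 and 209041812 counts. Counts of 1 and 2 filled fewer table entries (620 and 1045) than counts of 4 (2579), so a single count cannot be read as a single fragment. Values are given in CPM, the unit of edgeR's cpm function, which relates the counts of a gene to the library size after TMM scaling (factors between 0.987 and 1.014). One count was worth between 0.00482 and 0.00743 CPM. The deleted gene, Zfp335, had a mean of 120.1 CPM (SD 4.67) over the WT libraries and 14.8 CPM (SD 0.451) over the KO libraries, a log2 fold change of -3.02 (SE 0.046, adjusted p = 1.20e-13 in edgeR), in the direction of the labels. Xist, which is made by the inactive X chromosome and was picked after its values were seen, was at 0.272 ± 0.132 CPM in the WT libraries and 134.6 ± 10.4 CPM in the KO libraries (SD, n = 3 each). The labels give no sex, and what goes with Xist cannot be told apart from the genotype. Nothing in the labels says that the libraries of a group came from separate animals, so p-values measure the spread between these libraries, which may be partly technical.

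In WT Tregs the 9 genes together reached between 42.3 and 48.6 CPM, and in KO Tregs between 4.69 and 5.11 CPM. All 3 KO libraries were below all 3 WT libraries for 8 of the 9 genes, all but Klf1, a count that the choice of the genes fixed and from which nothing is read. Among all 17307 genes tested, 19.1% had all KO libraries below all WT libraries, and 24.1% passed edgeR's test in either direction. The median log2 fold change of the 9 genes, KO minus WT, was -4.05, and that of all genes tested was -0.0042. The genes split by size of difference. The 4 globin genes, Slc4a1 and Rhag were between 8.62% of their WT mean and no count at all in KO, Alas2 was at 35.6%, and Klf1 and Car2 were at 57.3% and 66.3%. Rhag was over the minimum of the expression filter in WT libraries alone, so it could enter the fit only with a difference. Slc4a1 was over it in 2 KO libraries where the filter asks for 3, so it entered the fit through its WT level. In bulk RNA, fewer cells of a type and less RNA per cell cannot be told apart.

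**Figure D1:**
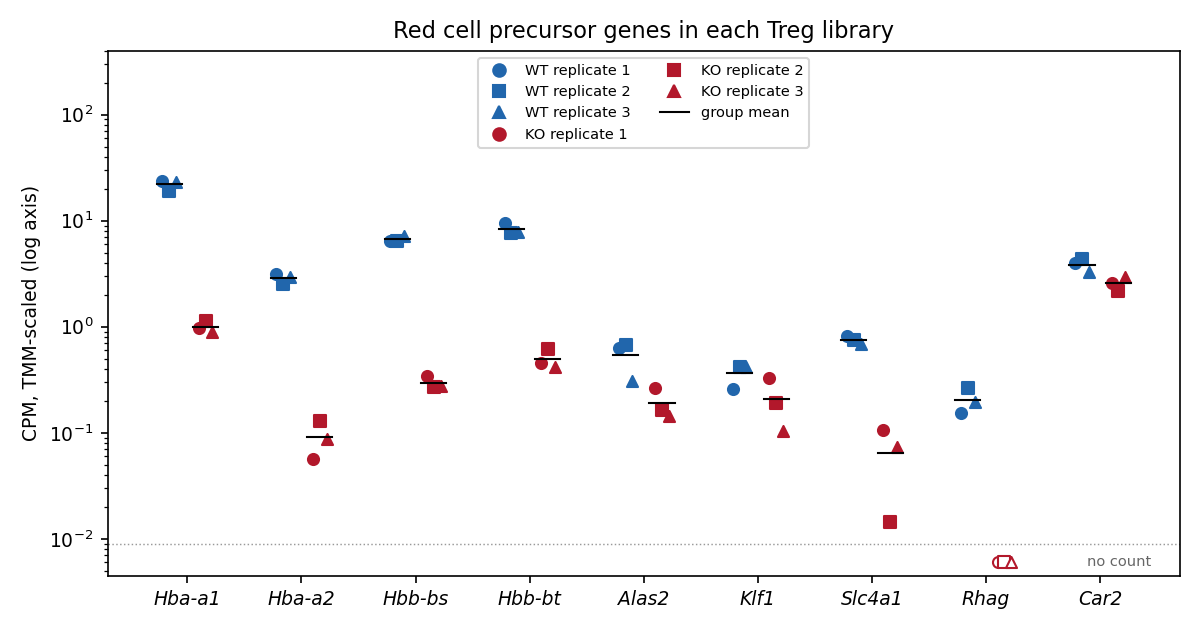
CPM (TMM-scaled, log axis) of the 9 red cell precursor genes in the 3 WT (blue) and 3 KO (red) Treg libraries, with a symbol for each replicate and a bar at each group mean; open symbols below the dotted line mark libraries with no count. Groups are far apart for the globin genes, Slc4a1 and Rhag, close for Alas2 and Car2, and overlap for Klf1.

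The sequences upstream of these genes are shown because the members share a tissue of expression and most of them were low together in KO. They are the 200 bases before the transcript start in RefSeq (GRCm38.p6), 5′ to 3′ on the gene's strand, and 7 of the 9 genes had an entry. Capitals mark the letters of 4 short motifs, each searched on both strands, so that a match on the opposite strand appears as the reverse complement. The motif GATAA, which GATA factors bind, occurred in 18.1% of the 32851 mouse promoter windows of this length. The CACCC box, a motif of KLF1 written here as CCNCNCCC, occurred in 42.6% of them. The CCAAT box occurred in 29.4%, and the letters TATAA, which begin many TATA boxes, in 18.6%. The windows of the alpha globin gene Hba-a1 (chr11:32283472-32283671, plus strand), the beta globin genes Hbb-bs (chr7:103827929-103828128, minus strand) and Hbb-bt (chr7:103813924-103814123, minus strand), and of Rhag (chr17:40810949-40811148, plus strand), Alas2 (chrX:150547217-150547416, plus strand) and Klf1 (chr8:84901782-84901981, plus strand) read as follows.
Hba-a1: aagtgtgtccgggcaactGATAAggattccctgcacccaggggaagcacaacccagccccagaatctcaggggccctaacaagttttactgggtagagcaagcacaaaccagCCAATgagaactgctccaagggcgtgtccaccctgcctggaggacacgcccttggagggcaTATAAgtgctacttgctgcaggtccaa
Hbb-bs: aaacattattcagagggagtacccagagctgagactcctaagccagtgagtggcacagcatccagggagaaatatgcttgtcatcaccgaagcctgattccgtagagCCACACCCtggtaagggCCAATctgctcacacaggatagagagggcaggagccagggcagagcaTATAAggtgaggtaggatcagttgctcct
Hbb-bt: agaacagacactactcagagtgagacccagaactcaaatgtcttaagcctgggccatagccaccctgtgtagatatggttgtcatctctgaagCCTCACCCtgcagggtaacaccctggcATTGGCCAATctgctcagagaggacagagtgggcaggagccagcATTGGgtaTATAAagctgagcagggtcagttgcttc
Rhag: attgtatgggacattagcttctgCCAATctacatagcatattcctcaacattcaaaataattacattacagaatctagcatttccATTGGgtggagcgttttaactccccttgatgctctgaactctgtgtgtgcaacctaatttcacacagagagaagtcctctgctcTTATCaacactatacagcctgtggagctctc
Alas2: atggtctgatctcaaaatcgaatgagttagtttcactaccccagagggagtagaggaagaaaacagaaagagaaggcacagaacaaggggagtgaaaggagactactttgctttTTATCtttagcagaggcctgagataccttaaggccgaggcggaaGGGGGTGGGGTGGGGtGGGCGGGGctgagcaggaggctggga
Klf1: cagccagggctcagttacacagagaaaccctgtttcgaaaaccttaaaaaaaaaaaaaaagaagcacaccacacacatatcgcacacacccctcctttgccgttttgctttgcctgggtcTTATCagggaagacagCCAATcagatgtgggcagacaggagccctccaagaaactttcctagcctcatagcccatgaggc
The alpha window held the GATA motif 182 to 178 bases before the start, the CCAAT box 88 to 84 bases before it and the TATA letters 27 to 23 bases before it. The window of Hba-a2 (chr11:32296292-32296491, plus strand) was identical over 197 bases once shifted by 3, so it is not printed. The beta windows had no GATA motif but held a CACCC box, whose letters differ between the 2 genes, upstream of a CCAAT box and the TATA letters. Their identity was 59.3% over 199 bases at a shift of 1. Rhag, Alas2 and Klf1 each had 1 GATA motif on the opposite strand and no TATA letters. Alas2 held 4 CACCC matches, 3 of which overlapped one another, and Klf1 and Rhag held a CCAAT box. A match is a string of letters and not a measured binding site, and no match says only that these letters are not in this window. The GENCODE annotation places the first base of all 7 genes inside these windows, upstream of the RefSeq start.

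Hba-a1 and Hba-a2 encode the alpha chain of adult haemoglobin and lie on chromosome 11 (GRCm38), at chr11:32283511-32284465 and chr11:32296489-32297298, both on the plus strand. Hba-a1 had 4312, 3646 and 3091 counts in WT replicates 1, 2 and 3, against 175, 234 and 171 counts in KO replicates 1, 2 and 3. These are 23.7, 19.1 and 23.0 CPM in WT and 0.981, 1.13 and 0.888 CPM in KO. Every KO library was far below the lowest WT library. The means were 21.9 ± 2.45 CPM in the WT libraries and 0.999 ± 0.121 CPM in the KO libraries (SD, n = 3 each), 22.0-fold apart, with a log2 fold change of -4.45 (SE 0.125). Hba-a2 was lower in level and had 3.18, 2.54 and 2.97 CPM in WT and 0.0561, 0.130 and 0.0883 CPM in KO. The KO libraries held only 10, 27 and 17 counts of Hba-a2, where WT held 400 to 578. Its log2 fold change was -4.94 (SE 0.266), the 17th lowest of the 17307 genes tested. Of the 50-base stretches in the transcripts of Hba-a2, 89.3% also occur in Hba-a1, and 72.3% of those of Hba-a1 occur in Hba-a2, so how reads were split between the 2 genes is uncertain.

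Hbb-bs and Hbb-bt encode the adult beta chains and lie on chromosome 7, on the minus strand, at chr7:103826534-103828096 and chr7:103812524-103813996. Hbb-bs was at 6.48, 6.46 and 7.16 CPM in WT and at 0.342, 0.270 and 0.275 CPM in KO. The WT libraries were within 1 CPM of each other, and the groups did not come near. Its means were 6.70 ± 0.397 CPM and 0.296 ± 0.0402 CPM (SD, n = 3 each), 22.6-fold apart, with a log2 fold change of -4.50 (SE 0.153). Hbb-bt was at 9.43, 7.66 and 7.82 CPM in WT and at 0.454, 0.622 and 0.415 CPM in KO. It was highest in WT replicate 1 and, among KO libraries, in KO replicate 2. Its fold difference was the smallest of the 4 globin genes, 16.7-fold, with a log2 fold change of -4.05 (SE 0.162). These genes share 381 of their 50-base stretches, 53.2% of Hbb-bs and 58.3% of Hbb-bt, with the same uncertainty. Of all genes tested, 33 had a fitted log2 fold change of -4 or below, and the 4 globin genes were among them. Rhag was counted there too, but it had no count in KO, so its fitted value is not read as a size. The members were chosen with their difference known, so their place among these genes is a description.

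The balance of the chains differed between the groups by far less than their sum did. The 4 globin genes together had 7785, 6819 and 5506 counts in WT and 327, 446 and 321 counts in KO. Alpha genes made up 62.8%, 60.6% and 63.4% of these counts in WT (95% Wilson intervals 61.7 to 63.9, 59.4 to 61.7 and 62.1 to 64.7) and 56.6%, 58.5% and 58.6% in KO (51.2 to 61.8, 53.9 to 63.0 and 53.1 to 63.8). All 3 KO shares were below all 3 WT shares, and the intervals of each KO library met those of at least 1 WT library. The intervals cover counting error alone and are too narrow if a fragment gave several counts. Per kilobase of annotated exon, the level of the alpha genes was 1.55, 1.42 and 1.60 times that of the beta genes in WT and 1.18, 1.28 and 1.29 times in KO. Every KO ratio was below every WT ratio. Hba-a1 took 88.2%, 88.3% and 88.5% of the alpha counts in WT and 94.6%, 89.7% and 91.0% in KO, each above all WT shares. The 95% Wilson intervals in KO were 90.3 to 97.0, 85.4 to 92.8 and 86.0 to 94.3, and those of KO replicates 2 and 3 held all WT shares. The split of reads between the 2 alpha genes is also uncertain. Hbb-bt took 59.3%, 54.3% and 52.2% of the beta counts in WT and 57.0%, 69.7% and 60.2% in KO, with KO replicate 2 the highest and the groups overlapping.

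**Figure D2:**
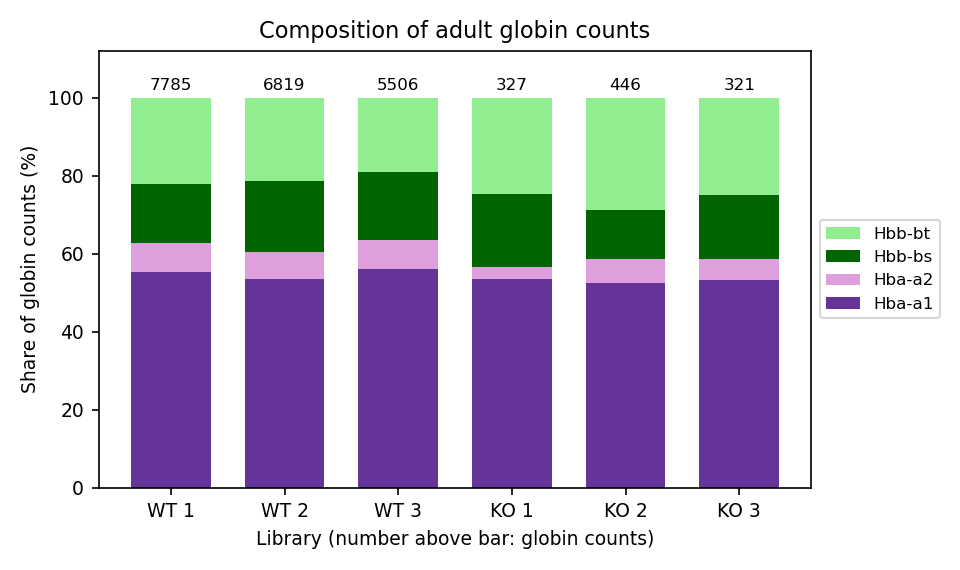
Share (%) of the 4 adult globin genes in the summed globin counts of each library, alpha genes in purple and beta genes in green, with the number of globin counts above each bar. Hba-a1 took between 52.5% and 56.1% of the globin counts in all 6 libraries, although the totals were between 5506 and 7785 in WT and between 321 and 446 in KO.

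The globin genes of other stages or cells did not accompany the adult chains. The embryonic genes Hba-x, Hbb-y and Hbb-bh1, as well as Hbb-bh2 and the myoglobin gene Mb, had no count in any library, whereas a floor of 3 counts in a library was at most 0.0223 CPM. Cygb and Ngb, the globins of fibroblasts and neurons, were the other 2 genes of a list of 7. Cygb was at 0.162 ± 0.108 CPM in the WT libraries and 0.384 ± 0.178 CPM in the KO libraries (SD, n = 3 each; edgeR's quasi-likelihood test, adjusted p = 0.0916). Ngb was at 0.198 ± 0.0713 CPM and 0.279 ± 0.132 CPM (adjusted p = 0.533 in the same edgeR test). Neither passed the threshold of 0.05 in edgeR or in DESeq2. At the same threshold without adjustment, 1 of the 2, Cygb, passed in edgeR. Without WT replicate 1, Cygb also passed after adjustment (adjusted p = 0.0222 in edgeR).

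Alas2 encodes the erythroid form of the enzyme for the first step of haem synthesis and lies on the X chromosome (chrX:150547375-150570638, plus strand). It was at 0.627, 0.677 and 0.305 CPM in WT and at 0.264, 0.164 and 0.145 CPM in KO. WT replicate 3, with 41 counts, was close to KO replicate 1, with 47 counts in a deeper library, so the groups were separate only by a small gap. The means were 0.536 ± 0.202 CPM and 0.191 ± 0.0635 CPM (SD, n = 3 each), 2.81-fold apart, with a log2 fold change of -1.57 (SE 0.381). Alas2 overlaps Apex2, a DNA repair gene on the other strand, with which it shares 263 of its 2398 stretches of 50 bases. Apex2 was at 13.8 ± 0.361 CPM in the WT libraries and 13.0 ± 0.730 CPM in the KO libraries (SD, n = 3 each). Whether the counting used the strand is not given in the sources used here, and the part of Apex2 reads in the Alas2 counts was not tested.

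For the lists of further genes that follow, a gene was called at an adjusted p under 0.05 in edgeR's quasi-likelihood test across all genes, which called 12.1% of the 17307 genes lower and 12.0% higher in KO. Without WT replicate 2, the 4170 calls in either direction became 2740. Of 17 genes of haem synthesis and its iron supply other than Alas2, all tested, 5 fell and 4 rose, with a median log2 fold change of 0.015, and without WT replicate 2 there were 5 calls in place of 9. Their changes were small beside those of the globin genes. Alas1, the form of the first enzyme found in all tissues, was at 20.2 ± 1.81 CPM in the WT libraries and 17.8 ± 0.925 CPM in the KO libraries (SD, n = 3 each; log2 fold change -0.18, adjusted p = 0.0817 in edgeR). Fech, which inserts iron into the ring, rose from 25.3 ± 1.01 to 29.2 ± 0.280 CPM (log2 fold change 0.21, adjusted p = 0.00649 in edgeR's test with n = 3 each). Tfrc, the transferrin receptor, which dividing cells of all kinds carry, rose from 79.0 ± 2.08 to 94.1 ± 3.24 CPM (log2 fold change 0.25, adjusted p = 3.69e-04 in edgeR's test with n = 3 each). Steap3, an iron reductase, had the lowest log2 fold change of the list, -0.78 (adjusted p = 0.0333 in edgeR), a call that was lost without WT replicate 2, KO replicate 1 or KO replicate 3 (adjusted p up to 0.154). All genes of the list had counts in KO.

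Slc4a1 encodes band 3, the anion exchanger of the red cell membrane (chr11:102348824-102366203, minus strand). It had 149, 142 and 92 counts in WT and 19, 3 and 14 counts in KO, or 0.819, 0.745 and 0.684 CPM against 0.107, 0.0145 and 0.0727 CPM. The WT libraries were close to each other, whereas KO replicate 2 was well below the other KO libraries. The means were 0.749 ± 0.0677 CPM and 0.0646 ± 0.0466 CPM (SD, n = 3 each), 11.6-fold apart, with a log2 fold change of -3.59 (SE 0.412). Without KO replicate 2 the log2 fold change was the smallest of the fits that leave out a library, -3.07. Rhag encodes the glycoprotein that carries the Rh complex to the membrane (chr17:40811126-40840754, plus strand). It had 28, 50 and 26 counts in WT, or 0.154, 0.262 and 0.193 CPM, and no count in any KO library. With an assumed floor of 3 counts for each KO library, on average 0.0156 CPM, Rhag would be 13.0-fold lower in KO. A single fragment may have given several counts, so this is not a firm lower bound. The fitted log2 fold change of a gene without counts depends on the prior count and is not read here as a size.

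Of 21 other membrane and skeleton genes of red cells, 19 were tested, of which 7 fell and 1 rose, with a median log2 fold change of -0.68. Of the 7 that fell, 3 were over the filter's minimum in WT libraries alone, so they could be tested only with a difference. Aqp1, the water channel, fell from 0.835 ± 0.162 to 0.120 ± 0.0478 CPM (log2 fold change -2.82, adjusted p = 5.55e-05 in edgeR's test with n = 3 each). Ank1, which ties band 3 to the skeleton, fell from 1.38 ± 0.286 to 0.486 ± 0.190 CPM (log2 fold change -1.45, adjusted p = 0.00157 in edgeR's test with n = 3 each). Add2, the beta adducin of the skeleton, went from a WT mean of 0.285 ± 0.116 CPM to 0.0297 ± 0.0290 CPM, a log2 fold change of -3.17. Only 1 KO library was over the filter's minimum for Add2, against all 3 WT libraries. Add2 thus entered the fit through its WT level, and its values are a description. The gene that rose was Epb41, the gene of protein 4.1, which many cell types use, from 144.4 ± 6.22 to 163.5 ± 1.28 CPM (log2 fold change 0.18, adjusted p = 0.0032 in edgeR's test with n = 3 each). With all counts divided by 4, an alternative chosen after seeing that low counts were rare, 4 genes of the list were called in place of 8.

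Klf1 encodes the erythroid factor that binds the CACCC box of the beta globin promoter (chr8:84901928-84905291, plus strand). It was at 0.258, 0.420 and 0.416 CPM in WT and at 0.331, 0.193 and 0.104 CPM in KO. KO replicate 1 was above WT replicate 1, so the groups overlapped, alone among the 9 genes. The means were 0.365 ± 0.0922 CPM and 0.209 ± 0.114 CPM (SD, n = 3 each), 1.74-fold apart, with a log2 fold change of -0.81 (SE 0.415). Leaving out 1 library at a time gave log2 fold changes between -1.26 and -0.49. The gap between the means was smaller than the range of the KO libraries.

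Among 16 other regulators of red cell formation, 15 were tested, of which 7 fell and 2 rose, with a median log2 fold change of -0.26, and 2 of the 7, Tal1 and Gfi1b, were over the filter's minimum in WT libraries alone, so their values are a description. Tal1, a partner of GATA1 in the erythroid activator complex, was at 0.378 ± 0.0837 CPM in the WT libraries and 0.0286 ± 0.0264 CPM in the KO libraries (SD, n = 3 each). Gfi1b, a repressor needed by red cell and platelet precursors, was at 0.196 ± 0.122 CPM in WT and 0.00643 ± 0.0111 CPM in KO, with 4 counts in one KO library and none in the others. Bcl11a, which represses fetal globin and is also used by B cells, fell from 1.97 ± 0.0721 to 0.681 ± 0.181 CPM (log2 fold change -1.52, adjusted p = 6.01e-05 in edgeR's test with n = 3 each). The master factor Gata1 showed no such difference, at 38.3 ± 4.12 CPM in the WT libraries and 39.3 ± 1.86 CPM in the KO libraries (SD, n = 3 each; log2 fold change 0.030, SE 0.067, adjusted p = 0.799 in edgeR). Per kilobase of exon, Gata1 was at 15.7 CPM in WT and 16.1 CPM in KO. In WT this was above Hbb-bt (11.8) and far above Klf1 (0.238). Which cells gave the Gata1 RNA was not tested, so no level within red cell precursors is read. Epor, the erythropoietin receptor, was at 0.470 ± 0.0669 CPM and 0.448 ± 0.0488 CPM (log2 fold change -0.050, SE 0.266, adjusted p = 0.922 in edgeR's test with n = 3 each). The genes that rose were Myb and Foxo3, with log2 fold changes of 0.23 and 0.21 (adjusted p = 6.63e-04 and 6.26e-04 in edgeR) and WT means of 70.5 and 113.0 CPM.

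Car2 encodes carbonic anhydrase II, which turns carbon dioxide and water into bicarbonate in red cells and in several other cell types (chr3:14886273-14900770, plus strand). It was at 3.95, 4.37 and 3.25 CPM in WT and at 2.58, 2.17 and 2.93 CPM in KO. The lowest WT library, replicate 3, was just above the highest KO library, also replicate 3. The means were 3.86 ± 0.562 CPM and 2.56 ± 0.380 CPM (SD, n = 3 each), 1.51-fold apart, with a log2 fold change of -0.62 (SE 0.138). Car1, another cytosolic carbonic anhydrase of red cells, was at 1.40 ± 0.215 CPM in the WT libraries and 0.0878 ± 0.0883 CPM in the KO libraries (SD, n = 3 each). It had no count in KO replicate 1. The filter asks for 3 libraries over its minimum, which the KO libraries alone did not reach, so the values of Car1 are a description. Of 19 other enzymes and late genes of red cells, 18 were matched by symbol, Ahsp being the one that was not, and 15 were tested, of which 4 fell and 3 rose, with a median log2 fold change of -0.060. Pklr, the pyruvate kinase of red cells and liver, is 1 of the 4 and was over the filter's minimum in WT libraries alone, at 0.324 ± 0.0915 CPM in WT against 0.0337 ± 0.0197 CPM in KO, so its values are a description. Hemgn, a nuclear protein of blood precursors, was at 0.609 ± 0.178 CPM in WT and 0.393 ± 0.0923 CPM in KO (adjusted p = 0.123 in edgeR's test with n = 3 each). The highest log2 fold change of the list was that of Ypel4, 0.82 (adjusted p = 0.00376 in edgeR).

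Over the 5 lists, 80 genes besides the 9 members, 68 were tested and 23 fell, 10 rose and 35 did not pass. Among all genes tested, 12.1% were called lower and 12.0% higher. Of the 23, 6 were over the filter's minimum in WT libraries alone. Add2 and Car1, also among the 23, had no count in KO replicate 1 and would not have passed the filter on the KO libraries alone. The lists were put together with results of these data known.

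**Figure D3:**
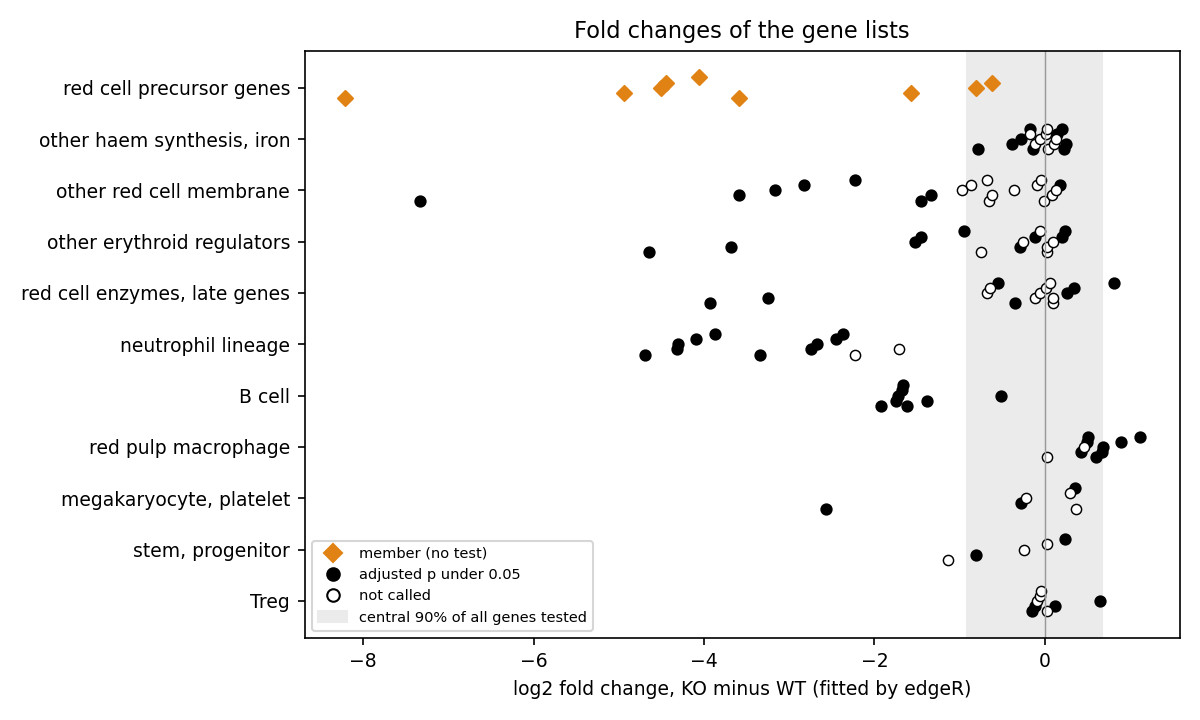
Fitted log2 fold change, KO minus WT (horizontal axis), of each tested gene of each list except that of other globin genes. The tested genes of that list, Cygb (1.22) and Ngb (0.44), are not drawn. Diamonds are the 9 red cell precursor genes, which were not tested. Filled circles are genes with an adjusted p under 0.05 in edgeR, and open circles are genes above it. The grey band holds the central 90% of all genes tested, from -0.91 to 0.68. The red cell lists have a tail of strongly lower genes beside many near 0, the neutrophil and B cell genes lie below 0, and the red pulp macrophage genes lie above 0.

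Relative to the globin counts, the other members kept different proportions in the groups. Alas2 had 14.6, 18.9 and 7.45 counts for every 1000 globin counts in WT and 143.7, 76.2 and 87.2 in KO. For Klf1 these were 6.04, 11.7 and 10.2 in WT and 180.4, 89.7 and 62.3 in KO. Car2 had between 79.6 and 122.0 in WT, and in KO it had more counts than all globin genes together, with 1407, 1009 and 1757 per 1000. Slc4a1 had 19.1, 20.8 and 16.7 in WT and 58.1, 6.73 and 43.6 in KO, where replicate 2 was below and replicates 1 and 3 were above the WT libraries. Rhag had 3.60, 7.33 and 4.72 in WT and no count in KO. With only 327, 446 and 321 globin counts in KO, ratios as low as those of WT would give few Rhag counts, so no direction is read for Rhag. For Alas2, Klf1 and Car2, all KO ratios were above all WT ratios. The globin counts below these ratios were chosen with their fall known. Only 33 of the 17307 genes tested had a log2 fold change of -4 or below. Most genes would therefore have higher ratios to globin counts in KO, and nothing particular to these genes is read from it.

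Per kilobase of exon, the order of levels in WT was Hba-a1 (27.0 CPM per kb), Hbb-bt (11.8), Hbb-bs (8.72), Hba-a2 (4.34), Car2 (1.59), Klf1 (0.238), Alas2 (0.223), Slc4a1 (0.153) and Rhag (0.0869). Klf1, Alas2 and Slc4a1 were not separated by more than the spread between the WT libraries, whereas the globin genes kept the same order in all 3. In KO the level of Car2 (1.06 CPM per kb) was next to that of Hba-a1 (1.23), with overlapping libraries, and above those of Hbb-bt (0.707), Hbb-bs (0.385) and Hba-a2 (0.137). Klf1 (0.137) was level with Hba-a2 in KO, and Alas2 (0.0795), Slc4a1 (0.0132) and Rhag (no count) followed.

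Markers of other cells of the spleen were measured beside the red cell genes. Of 12 neutrophil lineage genes, all tested, 10 fell, with a median log2 fold change of -3.04, 2 of the 12 were over the filter's minimum in WT libraries alone (1 of them among the 10), and the list had a summed level of 22.6 to 30.4 CPM in WT and 1.51 to 2.84 CPM in KO. S100a8, a defining neutrophil gene, fell from 2.03 ± 0.453 to 0.135 ± 0.0502 CPM (log2 fold change -3.87, adjusted p = 1.22e-06 in edgeR's test with n = 3 each). All 8 B cell genes fell, with a median of -1.67 and a summed level of 55.6 to 60.7 CPM in WT and 24.3 to 26.5 CPM in KO. Red pulp macrophage genes moved the other way, and 8 of 10 rose, with a median of 0.56 and a summed level of 24.9 to 25.4 CPM in WT and 37.2 to 39.2 CPM in KO. Of these, Vcam1 rose from 4.85 ± 0.300 to 9.08 ± 0.112 CPM (log2 fold change 0.90, adjusted p = 2.12e-06 in edgeR's test with n = 3 each), and Spic, the factor that defines these macrophages, was at 0.358 ± 0.0460 CPM in WT and 0.487 ± 0.0371 CPM in KO (adjusted p = 0.254 in edgeR's test with n = 3 each). Their part in the result for the red cell genes was not tested.

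Of 13 megakaryocyte and platelet genes only 6 were tested, of which 2 fell, 1 of them over the filter's minimum in WT libraries alone, and 1 rose, and without WT replicate 2, KO replicate 1 or KO replicate 3 there was 1 call. The platelet chemokine genes Pf4 and Ppbp were near 0 in both groups, with at most 15 counts in a library. Their list summed to 83.0 to 87.2 CPM in WT and 71.3 to 72.1 CPM in KO, most of it from the integrin gene Itgb3, at 78.5 ± 2.28 and 64.6 ± 0.242 CPM (SD, n = 3 each). Of 7 stem and progenitor genes, 5 were tested, 1 fell and 1 rose, and a single call was made without WT replicate 1, KO replicate 1 or KO replicate 2. Kit, the stem cell factor receptor, rose from 7.71 ± 0.432 to 9.10 ± 0.469 CPM (log2 fold change 0.24, adjusted p = 0.0336 in edgeR's test with n = 3 each), a call lost in 5 of 16 alternatives (adjusted p up to 0.122). The genes of the sorted cells were at far higher levels than any of these. Of 8 Treg genes, 2 fell and 2 rose, and their sum was 3822 to 3864 CPM in WT and 3903 to 3961 CPM in KO. Foxp3 was at 1136 ± 17.4 CPM and 1052 ± 9.24 CPM (SD, n = 3 each; log2 fold change -0.11, adjusted p = 0.0163 in edgeR), and its call was lost without KO replicate 1, 2 or 3 (adjusted p up to 0.0923). Il2ra, the gene of CD25, had a log2 fold change of -0.15 (adjusted p = 0.00658 in edgeR), lost without KO replicate 2 (adjusted p = 0.0523), and Cd4 one of 0.032 (adjusted p = 0.507). Ctla4, an inhibitory receptor of Tregs, had the largest change of the list and rose from 410.3 ± 9.03 to 645.3 ± 8.93 CPM (log2 fold change 0.65, adjusted p = 9.56e-09 in edgeR's test with n = 3 each), a call kept in the 16 alternatives run for it. Calls in this list were 2, 1 and 2 without KO replicates 1, 2 and 3.

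The profile of the globin genes over the 6 libraries was also set against genes whose average log2 CPM was 0 or more, with the members left out. Strongly lower red cell genes of low level were under this limit and were not compared. Examples are Aqp1, with means of 0.835 CPM in WT and 0.120 CPM in KO, and Tal1, with 0.378 and 0.0286 CPM. The nearest genes thus do not show whether such red cell genes were nearer. Likeness was the Euclidean distance between log2 CPM values centred on each gene's mean. The 5 genes nearest to the mean globin profile among 12032 were Ngp (distance 0.738), Ltf (0.856), S100a8 (1.07), S100a9 (1.11) and Capn11 (1.48), whereas the globin genes themselves lay between 0.139 and 0.754 from it. The first 4 encode granule or cytosolic proteins of neutrophils and belong to the neutrophil list above. Ngp was at 5.35, 7.78 and 6.97 CPM in WT and at 0.179, 0.342 and 0.239 CPM in KO. Within WT, Ngp was lowest in replicate 1, where Hba-a1 and Hbb-bt were highest. Capn11, a calpain gene in none of the lists, was at 2.56 ± 0.183 CPM in the WT libraries and 0.237 ± 0.0692 CPM in the KO libraries (SD, n = 3 each). The order rests on 6 libraries and mostly on the difference between the 2 groups.

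**Figure D4:**
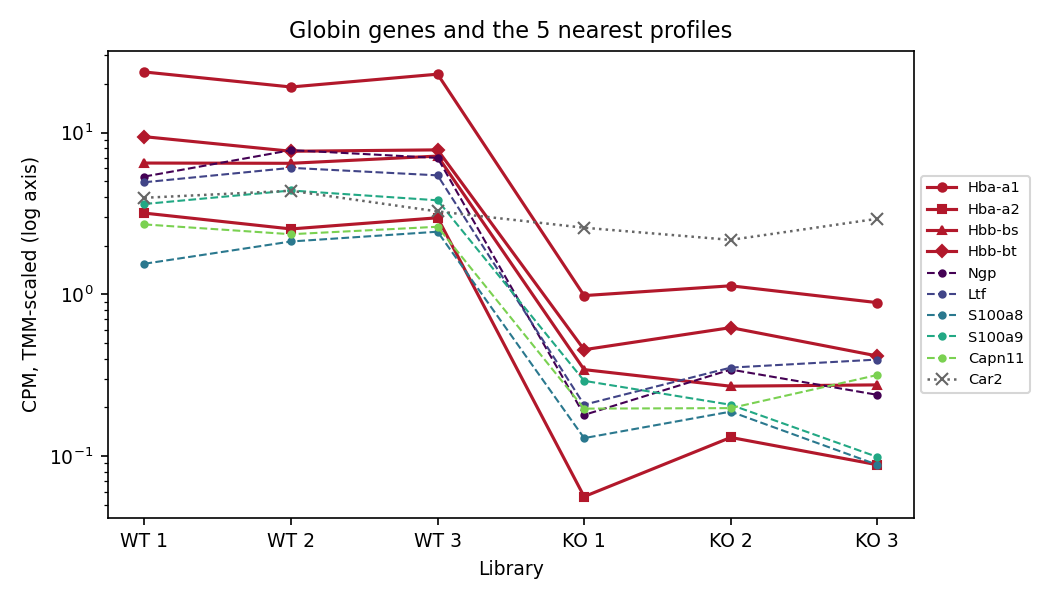
CPM (TMM-scaled, log axis) in each library of the 4 globin genes (solid red), the 5 genes with the nearest profile (dashed) and Car2 (dotted grey). The globin genes and the nearest genes step down between the WT and KO libraries by more than Car2 does, and within WT the neutrophil genes Ngp and S100a8 are lowest in replicate 1.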

How the data were processed

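Bulk RNA-seq libraries of CD4+CD25+ Tregs (3 WT and 3 KO) were analysed, and no library or column was left out. The file deposited by the authors holds unscaled read counts, with 32285 rows named by symbol, 40 of which repeat a name, and 6 columns. The submitters' processing notes name HISAT2, DESeq2 and mm10 without a role, and the counter, the annotation and the strand setting are not given in the sources used here; methods stated for other libraries of the study were not assumed to hold.

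Where a name was repeated, the fullest row was used under it. Counts were scaled by TMM and fitted with edgeR 4.0.16 in R 4.3.3 (quasi-likelihood test, robust dispersions, group as the only term) on the 17307 genes kept by filterByExpr, with Benjamini-Hochberg adjustment over these genes. Standard errors were obtained from the size of each log2 fold change and its F statistic. Genes named were the 9 members, Zfp335, 3 Treg genes, defining genes and the called genes with the lowest and highest log2 fold change of each list, and the 5 nearest profiles; Xist, Apex2 and genes at 0 were added after their values were seen, and some genes named by this rule are not reported here. The members and the lists were chosen with earlier results of these data known. Positions and exon lengths came from GENCODE M21 (GRCm38) and promoters from RefSeq (GRCm38.p6). The fit was also run on simulated data with the same dispersion for every gene, and its outcome is not reported here. That setting differs from the uneven low counts of these data, so nothing about them is read from it. Alternatives were other scalings, filters and tests (DESeq2 1.42.0), leaving out each library, and the replicate number as a block. Same-numbered libraries deviated together only weakly, with correlations of 0.0284, 0.00819 and 0.0326, and were therefore treated as unpaired.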

Additional observations from a re-analysis of the deposited data

How the results depend on the processing

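The log2 fold changes of the 9 members kept their sign in the alternatives run for each; the filter on an average log2 CPM of 1 removed Hba-a2, Alas2, Klf1, Slc4a1 and Rhag, and counts divided by 4 gave no value for Rhag. Summing the near-identical globin pairs before the fit gave -4.24 for the beta pair in place of -4.50 for Hbb-bs. For Rhag, which has no count in KO, the fitted value was -7.73 with DESeq2 in place of -8.22, and the difference of mean log2 CPM was -4.25 with a prior count of 2 and -6.19 with 0.5. Leaving out each library in turn gave -4.61 to -4.43 for Hbb-bs and -8.41 to -7.94 for Rhag. Over all genes, 2740 to 4996 were called without 1 library in place of 4170 (2740 without WT replicate 2), and 1203 with the study's supplemental cutoffs (adjusted p under 0.1, p under 0.05 and a fold of 1.5 or more), of which 62.9% were lower against 50.1%. Scaling by library size alone moved the lower share to 61.4% (2575 lower, 1622 higher). Calls in lists without 1 library were 0 to 1 (other globins), 5 to 11 (haem), 1 to 3 (platelet), 1 to 2 (stem and progenitor) and 1 to 5 (Treg). With the supplemental cutoffs they were 1 (other globins), 1 (haem), 5 (regulators), 3 (enzymes and late genes), 5 (macrophage), 1 (platelet) and 1 (Treg), where the required fold removes small changes. With genes kept only from an average log2 CPM of 1, fewer genes were tested and calls were 1 (membrane), 4 (regulators) and 3 (neutrophil). Counts divided by 4, chosen after seeing the data, left 4 membrane calls, and library size alone left 1 stem and progenitor call; the cause was not tested. In the fit with a replicate block, 4227 genes were called, Epb42 and Tubb1 lost their calls and Ikzf2 gained one, and no other listed gene changed its call; 5 of 6 libraries correlated best with their own number, which is a hint from the data and not part of the design. Depth limits values that rest on few counts, such as those of Rhag and Slc4a1 in KO, where the number of independent fragments is unknown.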
